A study of Mus musculus with 18 samples.

Results

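The zinc finger genes numbered Zfp700 to Zfp999 were examined in cultured mouse neurospheres, the floating clusters of neural stem and progenitor cells. Members were chosen by symbol, as genes named Zfp with a number in that range on a probe set annotated to that gene alone, and 113 of the 22180 genes on the array met the rule. The range itself was picked on measured values, because it holds Zfp773, Zfp820 and Zfp972, whose signals gave low p-values between genotypes, so differences between genotypes are given here as a description without a test. The study profiled 18 samples of female mouse origin, 1 Affymetrix gene array each, in 6 groups of 3. These were neurospheres with Pcdh19 knocked out, mosaic cultures that mixed knockout with wild type cells, and wild type neurospheres, each after 4 days of differentiation (day 4) and as undifferentiated neurospheres (day 0). The sources used here leave out age, strain, the knockout allele and the proportion of each genotype in the mosaic. The replicates are called technical in the design, so every p-value measures only the spread between these samples.

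Most numbered Zfp genes encode C2H2 zinc finger proteins, in which short loops held by a zinc ion read DNA, and many of those in this range also carry a KRAB domain. A KRAB domain recruits TRIM28 and, through it, the histone methyltransferase SETDB1 and HP1 proteins, and this machinery is best known for silencing retrotransposons in embryonic stem cells and neural progenitors. KRAB zinc finger genes have multiplied by tandem duplication and lie in clusters of closely similar copies. A probe set for one copy can therefore take up signal from another, and this was not tested. A further 26 probe sets annotated to several genes, at least 1 of them in the range, were not used.

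All 18 arrays had closely similar profiles within groups, with Pearson's r over probe sets of 0.981 to 0.986 between arrays of a group. Pcdh19 log2 signal was 5.39 to 5.86 in knockout arrays, 5.52 to 7.09 in mosaic arrays and 6.66 to 6.98 in wild type arrays. Mosaic replicate 3 at day 4, at 5.52, lay within the knockout range, and so did mosaic replicate 3 at day 0, at 5.65. Marker lists of differentiated cells were mostly higher and cell cycle genes lower at day 4. All 8 oligodendrocyte markers tested and 6 of 7 neuronal markers rose, while 4 astrocyte markers rose and 2, Gfap and Aldh1l1, fell (by 1.33 and 0.57), and 5 oligodendrocyte progenitor markers rose and Cspg4 fell by 0.32. Averaged over an array, 8 oligodendrocyte markers had a mean log2 signal of 8.77 to 9.49 at day 4 and 5.46 to 5.91 at day 0, and 9 cell cycle genes had 6.33 to 7.48 at day 4 and 8.39 to 8.72 at day 0. The 8 neural stem cell markers measured had a mean of 9.80 to 9.93 at day 4 and 10.23 to 10.36 at day 0, but they did not move together: 3 rose (Prom1, Slc1a3 and Msi1) and 4 fell (Hes5, Nes, Vim and Sox2), with a median of -0.04. Endothelial and mural markers had 4.94 to 5.23 at day 4 and 4.59 to 4.78 at day 0, so the days did not overlap. Only 1 of 6 passed, Pdgfrb, which rose by 2.15, and the differences of the others ran from -0.06 to 0.17. Microglial markers (4.52 to 4.84 at day 4 and 4.44 to 4.75 at day 0) and fibroblast markers (4.33 to 4.78 and 4.32 to 4.71) overlapped between the days. Of these only the microglial marker P2ry12 passed, with a fall of 0.23. The part of these shifts in cell makeup in the results below was not tested, and in such bulk samples fewer cells of a type and less RNA per cell cannot be told apart.

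Over differentiation, averaged over the 3 genotypes, 28 of the 106 tested members rose and 18 fell at day 4, and 60 did not pass. Zfp994 rose by 0.79 on the log2 scale (1.73-fold), the largest rise of a member, and Zfp711 fell by 0.55 (1.47-fold), the largest fall but for Zfp820, whose signal was too low at day 4 for a fold to be given. No called member changed 2-fold. The comparison was day 4 minus day 0 with 9 arrays a day, in limma, with Benjamini-Hochberg adjustment over 19016 genes and a call at an adjusted p under 0.05. This average is orthogonal to the differences between genotypes, but it shares its arrays and its residual variance with the p-values on which the range was picked. Zfp773, Zfp820 and Zfp972 are therefore given without a p. Of the other 103 tested members 27 rose (26.2%) and 16 fell (15.5%). Over all tested genes 24.9% rose and 20.7% fell, and 45.6% changed in either direction, against 43.4% of the members, so members were called about as often as any gene. Without mosaic replicate 3 of day 4, whose Pcdh19 signal lay at the knockout level, 26 members rose and 17 fell. The median log2 difference was 0.04 for the members and 0.05 for all genes. The remaining 7 of the 113 members, Zfp735, Zfp934, Zfp947, Zfp951, Zfp981, Zfp982 and Zfp985, had signal too low for testing.

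**Figure D1:**
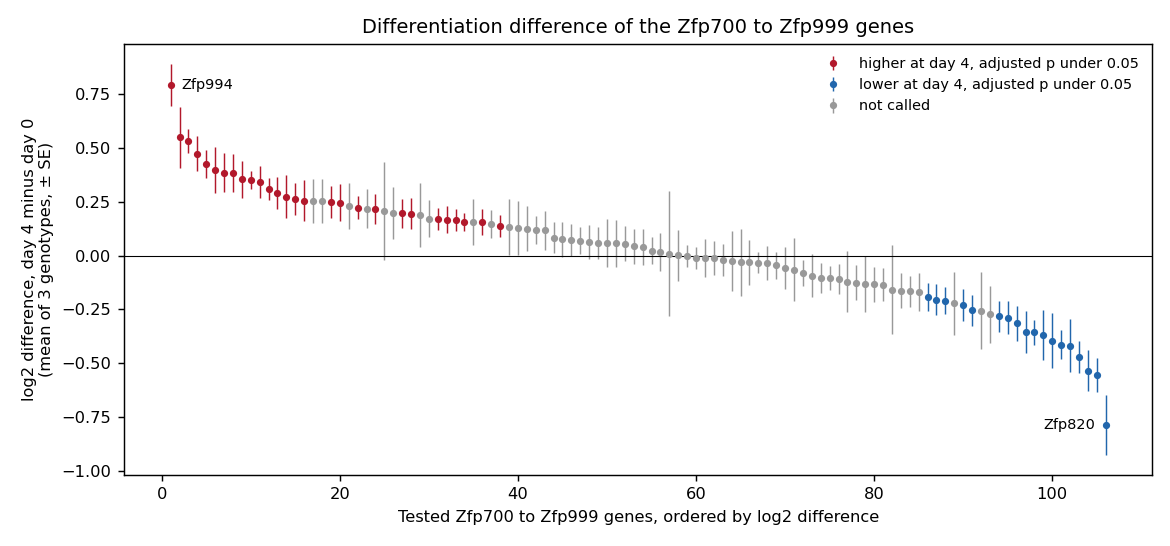
Log2 difference of day 4 minus day 0 (mean of 3 genotypes, ± SE) for each of the 106 tested members, in order of size. Members that passed at an adjusted p under 0.05 are red where higher at day 4 (28) and blue where lower (18), and the extremes are Zfp994 at 0.79 and Zfp820 at -0.79, the second measured at low signal.

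In 5 members every day 4 array lay above every day 0 array, and in 2 every day 4 array lay below, in comparisons of 9 arrays with 9. Among all tested genes 9.71% were separated upward and 9.09% downward in this way, against 4.72% and 1.89% of the members. The separated members that rose were Zfp994, Zfp773, Zfp768, Zfp706 and Zfp809, and those that fell were Zfp945 and Zfp871.

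Zfp706 encodes a small zinc finger protein that in mouse embryonic stem cells takes part in leaving self-renewal. At day 4 its log2 signal was 9.51, 9.61 and 9.67 in knockout arrays, 9.71, 9.56 and 9.58 in mosaic arrays, and 9.62, 9.67 and 9.73 in wild type arrays. At day 0 it was 9.21, 9.29 and 9.31 in knockout, 9.28, 9.28 and 9.35 in mosaic, and 9.23, 9.32 and 9.25 in wild type arrays. All groups at day 4 were thus high and all at day 0 low, with little spread within a day. The rise was 0.35 ± 0.04 (SE, 1.28-fold, adjusted p = 2.99e-06, limma), and a second, dimmer probe set of the gene gave 0.50.

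Zfp809 encodes a KRAB zinc finger protein that in mouse embryonic cells binds the primer binding site of murine leukaemia viruses and silences them. Its day 4 log2 signal was 7.25, 7.11 and 7.06 in knockout, 7.09, 7.24 and 7.17 in mosaic, and 6.95, 7.26 and 7.06 in wild type arrays. Its day 0 signal was 6.79, 6.75 and 6.85 in knockout, 6.93, 6.93 and 6.79 in mosaic, and 6.79, 6.80 and 6.77 in wild type arrays. The days came closest between wild type replicate 1 at day 4 and the highest mosaic arrays at day 0. The rise was 0.31 ± 0.05 (SE, 1.24-fold, adjusted p = 6.39e-05), and it was nearly even across genotypes, at 0.34, 0.29 and 0.31 in knockout, mosaic and wild type cultures.

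Zfp768 ranged over 7.33, 7.59 and 7.71 (lowest, median and highest of 9 arrays) at day 4, and over 6.85, 7.16 and 7.30 at day 0. It rose by 0.43 ± 0.07 (SE, adjusted p = 3.74e-05). Zfp945 fell by 0.41 ± 0.07 (adjusted p = 6.81e-05), with 8.08, 8.29 and 8.58 at day 4 and 8.58, 8.73 and 8.89 at day 0. Zfp871 fell by 0.36 ± 0.06 (adjusted p = 7.34e-05), with 8.38, 8.52 and 8.76 at day 4 and 8.76, 8.90 and 9.14 at day 0. In both falling genes the days met closely at the edge without crossing.

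**Figure D2:**
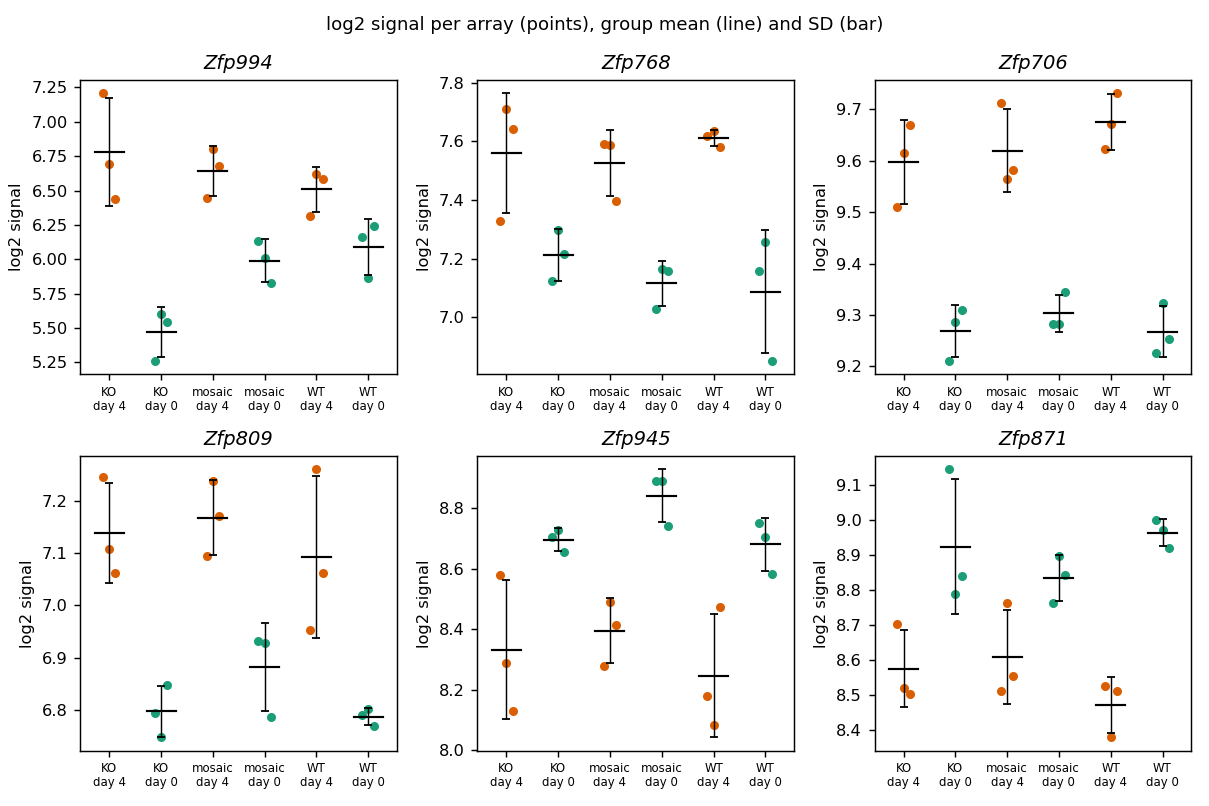
Log2 signal of 6 members whose day 4 and day 0 arrays do not overlap, by genotype and day. Points are arrays, lines are group means and bars are SDs (n = 3). Zfp994, Zfp768, Zfp706 and Zfp809 lie higher at day 4 and Zfp945 and Zfp871 lower, and the distance for Zfp994 is 1.31 in the knockout, 0.65 in the mosaic and 0.42 in the wild type.

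Other members, some of them with a known role, were chosen for mention after their values were seen, apart from those with the brightest probe sets. Zfp711, an X-linked gene whose human counterpart is mutated in intellectual disability, fell by 0.55 ± 0.08 (SE, adjusted p = 1.7e-05), with a median of 6.40 at day 4 and 6.96 at day 0. Its differences were -0.44 in the knockout, -0.31 in the mosaic, where it did not pass (adjusted p = 0.111, limma), and -0.91 in the wild type. Zfp873 rose by 0.55 ± 0.14 (adjusted p = 0.00447) and Zfp704 by 0.38 ± 0.09 (adjusted p = 0.00161). Zfp746, which encodes PARIS, a repressor of PGC-1 alpha that is degraded through parkin, rose by 0.17 (adjusted p = 0.0126). Zfp750, a regulator of epidermal differentiation, rose by 0.25 (adjusted p = 0.0117). These are averages over genotypes. Within single genotypes Zfp750 passed only in the wild type (0.49, against 0.05 in the knockout and 0.21 in the mosaic). Zfp704 passed only in the knockout (0.59), and Zfp873 and Zfp746 in none. Zfp932, a repressor of endogenous retroviruses in mouse cells, did not pass, with a log2 difference of 0.01 ± 0.29 (SE) and signals that ran from 4.43 to 6.29 at day 4 and from 4.12 to 6.17 at day 0. Its arrays spread over more than 1 log2 unit on each day, which limits what could be detected. Of the brightest probe sets, Zfp821 rose by 0.22 ± 0.05 (adjusted p = 0.00264) and Zfp760 fell by 0.28 ± 0.07 (adjusted p = 0.00425), while Zfp706, Zfp871 and Zfp945 are described above.

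At the edges of the number range, Zfp703, which encodes a corepressor of the NET family and has the lowest number inside, had a log2 signal median of 5.90 at day 4 and 5.87 at day 0. Zfp697, the nearest number outside, had 5.72 at day 4 and 5.56 at day 0. Zfp995, the highest number inside, had a low signal, 3.59 at day 4 and 3.97 at day 0. The range is one of names, and these genes are given only to mark its limits.

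Within single genotypes the balance of rises and falls differed in count. In the knockout 14 members rose and 7 fell, in the mosaic 11 rose and 2 fell, and in the wild type 8 rose and 14 fell, each of 106 tested. Picked genes are among them: Zfp773 in the rises of each genotype, Zfp820 in the knockout and wild type falls, and Zfp972 in the wild type falls. Unlike the average, these contrasts are not orthogonal to the differences between genotypes, so the calls of picked genes add no support. Over all tested genes 15% rose and 12.4% fell in the knockout (27.4% called in either direction), 14.4% rose and 11.9% fell in the mosaic (26.2%), and 17.2% rose and 16.3% fell in the wild type (33.6%). The members' shares were 13.2% and 6.6% in the knockout, 10.4% and 1.89% in the mosaic, and 7.55% and 13.2% in the wild type, so each lay below the share of all genes. The 214 other tested Zfp genes, which have lower numbers, had 18.2% and 9.35% in the knockout, 11.7% and 7.94% in the mosaic, and 9.81% and 20.1% in the wild type. The median log2 difference of the members was 0.07 in the knockout, 0.10 in the mosaic and -0.02 in the wild type, where that of all genes was 0.02, 0.02 and 0.09. The wild type balance depended on scaling: after quantile normalization 16 members rose and 10 fell in the wild type. The number of falls in the knockout depended on single arrays, with 2 without its day 0 replicate 1 or its day 4 replicate 2, 3 without its day 4 replicate 3 and 14 without its day 4 replicate 1. In the mosaic 1 fell without day 0 replicate 1, day 0 replicate 2 or day 4 replicate 2, and without the last of these 7 rose, while without day 4 replicate 3 10 rose and 2 fell. Differences in response between genotypes were not tested.

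**Figure D3:**
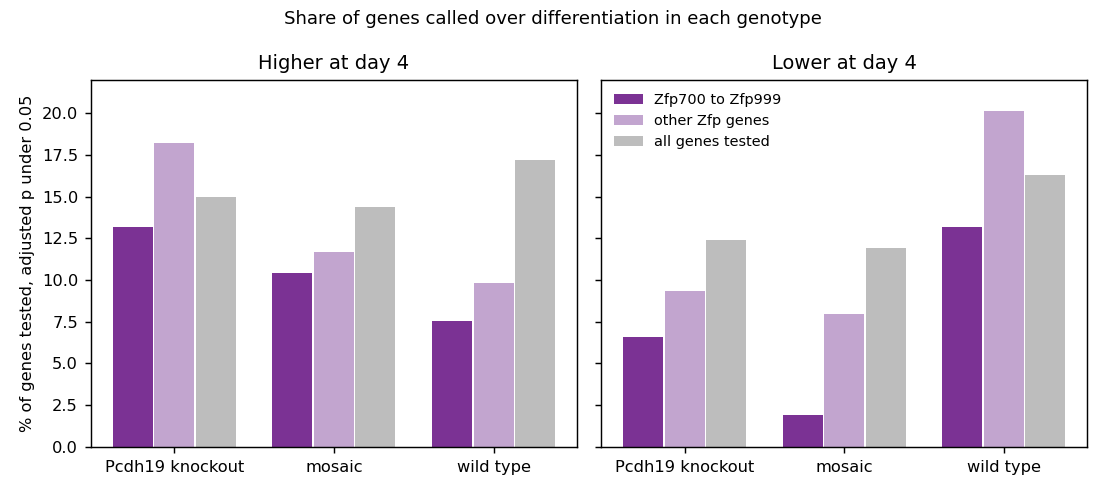
Percent of tested genes that passed at an adjusted p under 0.05 over differentiation, higher at day 4 (left) and lower at day 4 (right), for the Zfp700 to Zfp999 genes, the other Zfp genes and all genes tested. The bars of the members stand below those of all genes in each genotype, from 1.89% (mosaic, lower) to 13.2%. They include the picked genes Zfp773, Zfp820 and Zfp972.

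The log2 differences of the 3 genotypes were taken from separate arrays. Their tests share a residual variance fitted over all arrays, so calls in several genotypes are not independent of each other. Zfp706, Zfp768, Zfp771 and Zfp809 rose in each genotype, and Zfp945 fell in each. Zfp773 is counted with the rises too. As a picked gene it adds no support, because contrasts within a genotype are not orthogonal to the differences between genotypes. The counts and shares below include the picked genes. Differences had the same sign in all 3 genotypes for 56 of the 106 members (52.8%, against 60.4% of all genes), and 54 members (50.9%, against 48.8%) were called neither on average nor in any genotype. The shares of members that rose in all 3 and fell in all 3 were 4.72% and 0.943%, against 8.86% and 8.93% of all genes. Of the 14 members that rose in the knockout 6 also rose in the mosaic (42.9%, against 75.3% for all genes that rose in the knockout), and of the 11 that rose in the mosaic those 6 were 54.5% (against 78.5%). Of the 14 that fell in the wild type 5 fell in the knockout (35.7%, against 65.6%) and 2 in the mosaic (14.3%, against 60.9%). Of the 7 that fell in the knockout 5 fell in the wild type (71.4%, against 86.2%) and 1 in the mosaic (14.3%, against 76.5%). Of the 8 that rose in the wild type 5 rose in the knockout and 5 in the mosaic (62.5% each, against 58.5% and 55.6%).

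Zfp773, one of the genes for which the range was picked, was higher after differentiation in every genotype. At day 4 its log2 signal was 6.41, 6.31 and 6.03 in knockout, 6.19, 6.02 and 5.91 in mosaic, and 5.83, 5.83 and 5.92 in wild type arrays. At day 0 it was 5.70, 5.80 and 5.72 in knockout, 5.48, 5.65 and 5.59 in mosaic, and 5.19, 5.27 and 5.24 in wild type arrays. On each day the knockout group was the brightest and the wild type group the dimmest by mean. The knockout minus wild type difference was 0.39 at day 4 and 0.50 at day 0, and mosaic minus wild type was 0.18 and 0.34, contrasts of the kind on which the range was picked. Averaged over genotypes, the difference of day 4 minus day 0 was 0.53 (1.45-fold).

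Zfp820 had a low signal on every array, below the array medians of 4.85 to 4.99. Its day 4 log2 signal was 2.996, 2.64 and 2.51 in knockout, 2.53, 3.63 and 3.40 in mosaic, and 2.93, 2.56 and 2.30 in wild type arrays. Its day 0 signal was 3.63, 4.03 and 3.32 in knockout, 3.27, 3.17 and 2.96 in mosaic, and 4.11, 3.94 and 4.18 in wild type arrays. Day 4 lay wholly below day 0 in knockout and in wild type cultures, while the mosaic days overlapped. Mosaic minus wild type was 0.59 at day 4 and -0.94 at day 0, and knockout minus wild type was 0.12 and -0.41. The differentiation differences were -0.94 in the knockout, 0.05 in the mosaic and -1.48 in the wild type, and their average was -0.79. The probe set lay above the filter level, the 25th percentile of an array (3.57 to 3.67), on 1 of 9 arrays at day 4 and 5 of 9 at day 0, so it was tested mainly through its day 0 signal, and it was not tested at all under a filter at the 50th percentile. The size of its difference is therefore uncertain.

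Zfp972 showed the widest gap between genotypes at day 4 among the members. At day 4 its log2 signal was 5.06, 4.60 and 4.79 in knockout, 5.03, 5.10 and 5.37 in mosaic, and 3.50, 3.73 and 4.27 in wild type arrays. At day 0 it was 5.15, 5.47 and 4.92 in knockout, 4.30, 4.90 and 4.75 in mosaic, and 5.22, 4.84 and 5.23 in wild type arrays. The wild type arrays at day 4 were the lowest of all 18. Knockout minus wild type was 0.98 at day 4 and 0.08 at day 0, and mosaic minus wild type was 1.33 and -0.45. Over differentiation the values were -0.36 in the knockout, 0.51 in the mosaic and -1.26 in the wild type. The average was -0.37, which lay close to the knockout value but describes neither the mosaic nor the wild type well.

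**Figure D4:**
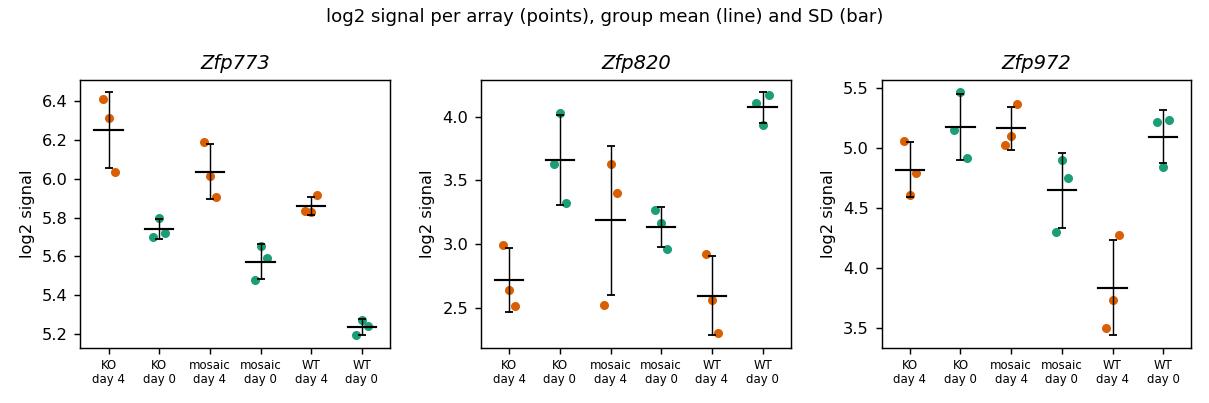
Log2 signal of Zfp773, Zfp820 and Zfp972 by genotype and day. Points are arrays, lines are group means and bars are SDs (n = 3), and the Zfp972 panel shows the wild type at day 4 (3.50 to 4.27) under the other 5 groups.

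Promoters of these 3 genes are shown with those of Zfp994 and Zfp945, a pair from one cluster that moved in opposite directions over differentiation. Each is RefSeq sequence of mouse assembly GRCm38.p6, 5′ to 3′ on the gene's strand, from 250 bases before to 50 after the annotated start. Capitals mark matches on either strand to the ETS core CCGGAA, the YY1 motif AAGATGGC, the NRF1 motif GCGCATGC, the cyclic AMP response element TGACGTCA or the TATA box TATAAA, which share no letters where they match here. All 5 lie on the minus strand, at chr7:7136706-7137005 for Zfp773, chr17:21845710-21846009 for Zfp820, chr2:177925601-177925900 for Zfp972, chr17:22225565-22225864 for Zfp994 and chr17:22867085-22867384 for Zfp945.
Zfp773: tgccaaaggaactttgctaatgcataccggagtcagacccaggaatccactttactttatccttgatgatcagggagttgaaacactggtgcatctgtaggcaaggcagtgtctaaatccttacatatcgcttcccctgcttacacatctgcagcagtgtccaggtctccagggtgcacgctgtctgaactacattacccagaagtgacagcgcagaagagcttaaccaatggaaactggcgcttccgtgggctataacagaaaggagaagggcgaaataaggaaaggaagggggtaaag
Zfp820: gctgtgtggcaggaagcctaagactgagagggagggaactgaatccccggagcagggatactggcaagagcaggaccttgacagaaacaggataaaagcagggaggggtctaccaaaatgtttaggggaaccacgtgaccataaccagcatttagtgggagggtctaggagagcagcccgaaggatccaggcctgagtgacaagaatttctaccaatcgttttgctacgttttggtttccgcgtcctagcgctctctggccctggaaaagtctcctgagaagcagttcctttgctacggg
Zfp972: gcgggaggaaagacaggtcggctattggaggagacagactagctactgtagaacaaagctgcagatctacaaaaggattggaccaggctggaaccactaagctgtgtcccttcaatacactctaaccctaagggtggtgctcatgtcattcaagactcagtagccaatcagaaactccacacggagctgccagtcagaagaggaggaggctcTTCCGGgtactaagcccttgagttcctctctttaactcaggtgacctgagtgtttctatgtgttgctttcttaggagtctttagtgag
Zfp994: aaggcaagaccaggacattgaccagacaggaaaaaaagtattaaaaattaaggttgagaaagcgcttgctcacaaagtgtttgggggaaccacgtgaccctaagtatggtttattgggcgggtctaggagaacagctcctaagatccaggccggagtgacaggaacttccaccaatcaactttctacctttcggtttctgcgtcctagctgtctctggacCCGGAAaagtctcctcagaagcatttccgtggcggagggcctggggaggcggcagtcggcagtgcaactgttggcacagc
Zfp945: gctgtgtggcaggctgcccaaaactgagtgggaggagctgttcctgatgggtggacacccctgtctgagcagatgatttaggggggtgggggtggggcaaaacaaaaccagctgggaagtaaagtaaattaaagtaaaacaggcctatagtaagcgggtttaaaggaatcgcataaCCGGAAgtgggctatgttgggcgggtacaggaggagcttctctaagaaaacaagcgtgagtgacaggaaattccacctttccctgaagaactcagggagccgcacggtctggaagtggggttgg

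Zfp972, Zfp994 and Zfp945 each held 1 match, to the ETS core, and Zfp773 and Zfp820 held none. RefSeq promoters were found for 100 of the 113 members, 119 promoters in all. The ETS core was in 31.1% of them, against 18.7% of 21263 promoters of protein-coding genes and 37.4% of 238 promoters of the other Zfp genes. By gene, counting a match in any promoter, it was in 9 of 16 members that fell over differentiation, 6 of 23 that rose and 14 of 55 that did not pass. The 9 include Zfp972, a picked gene. No such split was made for all genes or the other Zfp genes, so these counts cannot show a link particular to the members. The TATA box was in 5.88% of the members' promoters and 12.6% of all, the YY1 motif in 5.04% and 3.05%, the NRF1 motif in 3.36% and 3.52%, and the cyclic AMP response element in 0.84% and 2.23%. Median CG dinucleotides in 300 bases were 10 for the members and 13 for all. A match to these letters is a description of the sequence, and no binding was measured.

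Neighbouring members did not share one direction everywhere, and 2 clusters are described that held mostly calls of one direction. The grouping was made after the values were seen and is not tested. In the RefSeq gene order of GRCm38.p6, with at most 3 other genes between neighbours, 76 members fell into 21 runs of 2 to 13 members. The longest run, 13 members on chromosome 17 from Zfp948 to Zfp945, held 12 tested members, of which 8 fell and 1 rose, where 20.7% of all genes fell and 24.9% rose. The count of falls includes Zfp820, a picked gene with low signal that was tested mainly through its day 0 arrays, so its fall adds no support. Under the filter at the 50th percentile, where Zfp820 was not tested, 7 of 10 tested members of the run fell. Besides Zfp820 and Zfp945, the falls were those of Zfp942 (-0.53 ± 0.09, SE), Zfp948 (-0.47 ± 0.07), Zfp944 (-0.40), Zfp946 (-0.35), Zfp943 (-0.31) and Zfp760, with adjusted p from 5.33e-05 to 0.0189. A second, dimmer probe set of Zfp943 gave 0.25, the opposite sign. Zfp983, Zfp995 and Zfp758, in the same run, did not pass, with -0.16, -0.26 and -0.03. Zfp995 had low signal too, above the filter level on 4 of 9 arrays at day 4 and 7 of 9 at day 0.

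Zfp994 was the single member of that run that rose. At day 4 its log2 signal was 7.21, 6.69 and 6.44 in knockout, 6.44, 6.80 and 6.67 in mosaic, and 6.32, 6.62 and 6.58 in wild type arrays. At day 0 it was 5.26, 5.60 and 5.54 in knockout, 6.13, 6.01 and 5.82 in mosaic, and 6.16, 5.86 and 6.25 in wild type arrays. The knockout arrays were the lowest at day 0. The rise was 0.79 ± 0.10 (SE, adjusted p = 3.63e-06). By genotype the difference was 1.31 in the knockout, 0.65 in the mosaic and 0.42 in the wild type, where it did not pass (adjusted p = 0.0693, limma).

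The other cluster, on chromosome 7, held Zfp771, Zfp768, Zfp747 and Zfp764, and all 4 rose, where 24.9% of all genes did. Zfp771 had 5.63, 5.86 and 6.08 (lowest, median and highest) at day 4 and 5.14, 5.40 and 5.65 at day 0, and rose by 0.47 ± 0.08 (SE, adjusted p = 0.000119). Zfp747 rose by 0.39 (adjusted p = 0.00217) and Zfp764 by 0.26 (adjusted p = 0.036). By genotype each of the 4 had a difference above 0, from 0.14 for Zfp764 in the knockout to 0.64 for Zfp747 in the wild type. Over all alternatives 3 or 4 of these 4 were called higher, and 7 to 9 members of the chromosome 17 run were called lower. Of the 21 runs 7 held at least 2 called members, and 4 of these 7 held calls in both directions. Beside Zfp809 on chromosome 9, Zfp810 rose by 0.36 (adjusted p = 0.00246) and Zfp872 did not pass (-0.12). Zfp954 and Zfp772, the neighbours of Zfp773 on chromosome 7, did not pass, with 0.04 and 0.17.

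**Figure D5:**
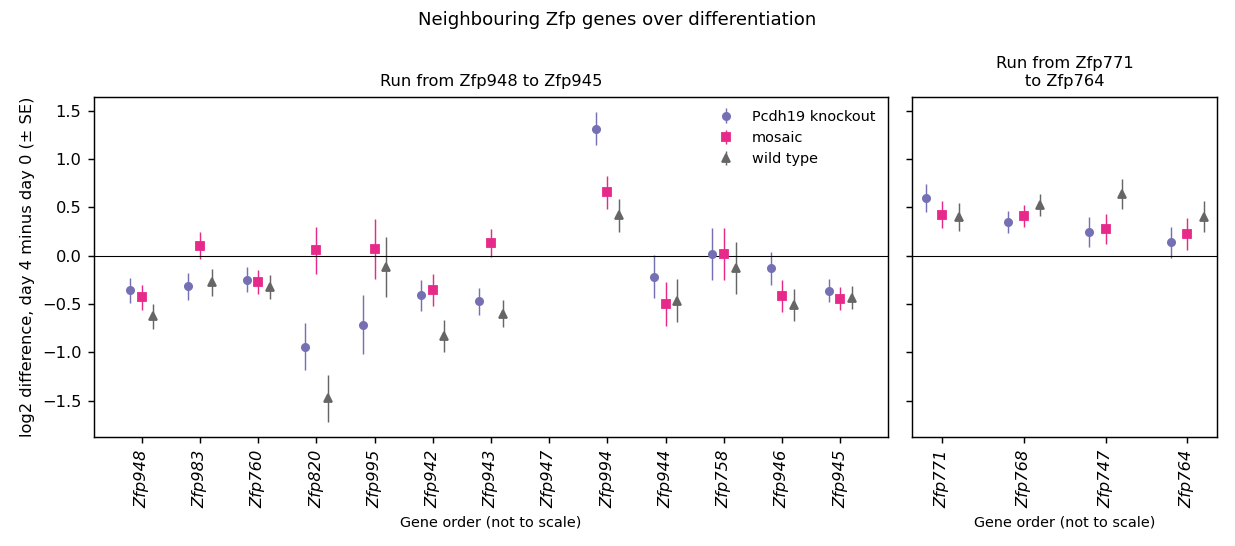
Log2 difference of day 4 minus day 0 (± SE) for each genotype in 2 runs of neighbouring members, in chromosomal order and not to scale. Left, Zfp948 to Zfp945, where Zfp994 lies at 0.42 to 1.31 above mostly negative values (Zfp947 was not tested); right, Zfp771 to Zfp764, with all values above 0.

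The corepressors that KRAB proteins work through included genes that rose and genes that fell over differentiation. Of 17 tested genes of the TRIM28 and heterochromatin list 2 rose, 6 fell and 9 did not pass (median -0.12). The list's 47.1% called was close to the 45.6% of all genes, with 11.8% against 24.9% higher and 35.3% against 20.7% lower. Trim28 itself, the scaffold that binds KRAB domains, rose by 0.24 ± 0.04 (SE, adjusted p = 0.000171), with a median of 9.35 at day 4 and 9.11 at day 0. Setdb1 did not pass, with 0.05 ± 0.05 (adjusted p = 0.471). Dnmt3a, a de novo DNA methyltransferase, rose by 0.55 (adjusted p = 1.38e-07). Uhrf1, which brings maintenance methylation to replicating DNA, fell by 0.70 (adjusted p = 9.67e-05), and the HP1 genes Cbx5 and Cbx3 fell by 0.37 and 0.36. Morc3 fell by 0.27. These are averages over genotypes, and within single genotypes Dnmt3a and Cbx5 passed in each. Trim28 did not pass in the mosaic (0.14), and Uhrf1 and Cbx3 did not pass in the wild type (-0.43 and -0.25). Morc3 passed only in the wild type (-0.38).

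In the NuRD complex, a remodelling and deacetylase complex that TRIM28 also recruits, 5 of 13 genes rose (38.5%) and 3 fell (23.1%), against 24.9% and 20.7% of all genes. Chd3 rose by 0.49, Gatad2a by 0.47, Mta1 by 0.37 and Mbd3 by 0.25, while Mta2 fell by 0.20 and Rbbp7 by 0.18. Within single genotypes Chd3, Gatad2a and Mta1 passed in each and Mbd3 in all but the knockout. Mta2 passed only in the wild type and Rbbp7 in none. Hdac2 fell by 0.14 (adjusted p = 0.0365), a call that ended after quantile normalization (0.0599), with a common array median (0.0694) and in 12 of the 18 fits that each left out an array. Proliferation genes fell on the same arrays, with 8 of 9 cell cycle genes lower (median -2.02), and their part in these shifts was not tested.

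Between genotypes the members were counted by groups of 3 arrays that do not overlap, as a description, since these contrasts picked the range. At day 4 in the knockout 16 of the 106 tested members (15.1%) lay above the wild type and 2 (1.89%) below. The shares of all genes were 8.56% and 8.27%. At day 4 in the mosaic 17 (16%) lay above the wild type and 1 (0.943%) below, against 9.62% and 8.55% of all genes. At day 0 in the knockout 5 (4.72%) lay above the wild type and 8 (7.55%) below, against 4.76% and 4.44%. At day 0 in the mosaic 5 (4.72%) lay above the wild type and 10 (9.43%) below, against 5.66% and 5.63%. Both comparisons of a day share the wild type arrays. Picked genes are in these counts and add no support: at day 4 Zfp773 and Zfp972 among the 16 and Zfp972 among the 17. At day 0 Zfp773 is among the 5 above the wild type in knockout and in mosaic, and Zfp820 among the 10 below. The counts were made on the values as deposited. At day 4 in the mosaic 5 members (4.72%) lay above the knockout and 3 (2.83%) below, against 4.24% and 4.44% of all genes. At day 0 the mosaic had 5 (4.72%) above the knockout and 6 (5.66%) below, against 5.14% and 4.88%. Zfp773, Zfp820 and Zfp972 are all among those 6. Log2 differences ran from -0.51 (Zfp872) to 0.98 (Zfp972) for knockout minus wild type at day 4, and from -0.62 (Zfp994) to 0.50 (Zfp773) at day 0.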

How the data were processed

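Total RNA, purified with Trizol and RNeasy columns per the labels' protocols, was measured on 18 Affymetrix mouse gene arrays. The authors deposited normalized values per probe set, read here as log2 from their range of 0.722 to 13.97. No source used here names the normalization, the background correction or the log base, and detection calls were not used. Of 41345 probe sets the 23521 with 1 platform symbol were used, and the probe set with the highest mean stood for a gene. Genes above the 25th percentile of an array on at least 3 arrays were tested (19016 of 22180). A mean for each of 6 groups was fitted in R 4.3.3 with limma 3.58.1 (12 residual degrees of freedom), with two-sided moderated tests and Benjamini-Hochberg adjustment over all genes tested. The fit was tested on simulated data first. Members and lists were chosen with earlier results of these data known.

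Named genes were the 3 that the range was picked on, called members whose 9 day 4 and 9 day 0 arrays do not overlap, the 5 brightest probe sets, the edges of the number range, members called in opposite directions in different genotypes (of which there were none), and the largest called changes of 2 corepressor lists with Trim28 and Setdb1. Any other gene was named after its values were seen. Protein sequences were not used here. Same-numbered arrays of the days correlated in their deviations by 0.02 to 0.16 within genotypes, so replicate numbers were not taken to pair samples. Alternatives were other scalings, filters, probe set rules and variance models, a replicate block, fits on the groups compared alone, and leaving out each array.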

Additional observations from a re-analysis of the deposited data

Results flagged for a closer look

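Zfp972 stood out because its days separated in opposite directions in 2 genotypes. All 3 mosaic arrays at day 4 lay above all 3 at day 0, with a log2 difference of 0.51, and all 3 wild type arrays at day 4 lay below all 3 at day 0, with -1.26. The difference between the genotypes was not tested, since differences between genotypes picked the range. Groups of 3 are too small for a search for outlying arrays.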

How the results depend on the processing

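The counts of members called over differentiation, averaged over genotypes, ranged from 26 to 33 higher and from 15 to 18 lower over the settings other than leaving out arrays. Of the 28 higher calls all 28 were kept after quantile normalization, as were 15 of the 18 lower calls, and no call turned. The wild type count of members higher was 16 after quantile normalization against 8 as deposited. The mosaic count of members lower was 1 with a common array median against 2, and the knockout count of members lower was 2 in a fit on its own arrays against 7. With the replicate block 28 members rose and 18 fell on average, 17 and 8 in the knockout, 11 and 2 in the mosaic and 9 and 12 in the wild type, so it changed no count by over 1.5 times. Leaving out each array in turn gave 23 to 31 higher and 17 to 21 lower on average, 11 to 14 and 2 to 14 in the knockout, 7 to 10 and 1 to 3 in the mosaic, and 6 to 8 and 11 to 17 in the wild type. Zfp703, at -0.000538 as deposited and never called, was 0.0502 after quantile normalization, 0.0102 with a common array median and between -0.0228 and 0.0223 without single arrays. The causes were not tested. The 2 neighbour counts and their alternatives were chosen after seeing the data. Precision was limited by 3 arrays a group, with a median SE of 0.14 for a member within 1 genotype.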
